A study of Sus scrofa with 80 samples.

Results

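LYVE1 and a set of endothelial genes were followed across the tissues and ages of the Göttingen minipig. The set was defined as those of LYVE1, STAB1, STAB2, PECAM1, VWF, KDR, FLT1, TEK, TIE1 and ENG that occur as a gene name on the array, and it was chosen because LYVE1 is present and falls in bone marrow. Of these 10 genes, 7 were found by name (LYVE1, STAB1, STAB2, VWF, KDR, TEK and ENG) among 23722 analysed gene entries, each with 2 probes. The genes were thus chosen by the measured levels of LYVE1 and their fall with age in bone marrow, which is described below without a test. PECAM1 and FLT1 were matched only through RefSeq transcript identifiers (NM_213907 and XM_001925740) and are given beside the others as comparators, while TIE1 was not analysed here. The same route gave a further probe pair for LYVE1 (XM_003480736) and one for VWF (NM_001246221), called the second pairs.

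Total RNA of untreated animals was hybridized to a custom one-color Agilent array, 1 array per tissue sample. Males and females of 1 week, 4 weeks, 2 months and 4 months gave cerebellum, hypothalamus, cortex, liver, kidney, spleen and bone marrow, with 8 samples per tissue, 1 of each sex at each age. Testis and ovary were sampled at the same ages, and 1 male of 2 years gave 1 sample per male tissue, 8 repeat arrays of its kidney and 1 array of the renal pelvis. That animal was raised partly at another site and on another feed, and its samples were on 2 slides of their own, so its age, housing and slides cannot be told apart. Age was compared as 2 and 4 months (older, 4 samples) against 1 and 4 weeks (younger, 4 samples) in each tissue. The labels do not say which tissues came from the same animal, so p-values measure the spread between these samples.

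Endothelial cells line all blood and lymph vessels. LYVE1 is a hyaluronan receptor of lymphatic endothelium, of the sinusoids of liver, spleen and lymph node, and of some tissue macrophages. The stabilins STAB1 and STAB2 are scavenger receptors of sinusoidal endothelium, and STAB1 is also made by macrophages. KDR and FLT1 are receptors for vascular endothelial growth factors, TEK is the receptor for angiopoietins, ENG is a co-receptor for ligands of the transforming growth factor beta family, PECAM1 is an adhesion molecule between endothelial cells, and VWF is a clotting protein stored by endothelial cells and by megakaryocytes. No probe sequences are printed, since the files used here do not hold them.

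Levels are log2 intensities after background correction and quantile normalization, and a difference of 1 is a doubling. Median intensity of the gene spots was 27 to 89 per array against 17 to 25 for negative controls, and 48.8% to 65.8% of gene spots were well above background by the scanner software's own call. Precision is limited by the number of arrays. Marker lists followed the tissue labels: the mean level of 6 hepatocyte genes was 9.60 in liver and at most 4.13 in the other 6 tissues, and that of 5 kidney tubule genes was 9.06 in kidney and at most 3.34 elsewhere. The library labelled bone marrow of 2 years stood apart. Its mean level of 16 erythroid genes was 5.58, against 10.6 to 11.4 in the 8 younger marrow samples, that of 14 megakaryocyte and platelet genes was 4.27 against 7.08 to 8.40, and that of 10 fat and stromal genes was 8.25 against 5.09 to 7.07. It entered no test of the comparisons below except where stated.

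Over all ages from 1 week to 4 months, the mean of LYVE1 was highest in liver, followed by spleen and bone marrow. The order of spleen and bone marrow depended on age, with means at 1 week of 4.93 in spleen and 5.19 in bone marrow and at 4 months of 6.04 and 2.90. Liver gave 6.97 ± 0.51 (SD, n = 8), with a lowest value of 6.20, a median of 6.94 and a highest of 7.83. Spleen gave 5.74 ± 0.64 (lowest 4.65, median 5.86, highest 6.66), and bone marrow 4.27 ± 1.07 (lowest 2.80, median 4.35, highest 5.66). The lowest liver sample lay below the highest spleen sample, so these groups overlapped, but their difference passed the test (limma, adjusted p = 0.000629). No test is given for spleen against bone marrow, since the marrow values chose the genes. Kidney, hypothalamus, cortex and cerebellum followed with means from 3.41 to 2.91, and neighbors in that order did not differ beyond their spread (adjusted p from 0.269 to 0.986). In cerebellum and cortex no sample was well above background, and in hypothalamus and kidney 1 of 8 was. Liver was thus at least 13.9-fold above cerebellum (measured means 6.97 and 2.91, adjusted p = 3.24e-17) and at least 11.9-fold above cortex (adjusted p = 2.93e-15). Spleen was at least 5.90-fold above cerebellum (adjusted p = 1.40e-11). These bounds set the mean of the brighter tissue against, in each dim array, the higher of the gene's own level and the lowest level of any probe well above background. They hold in the setting reported only and leave out the spread between samples.

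The second LYVE1 pair gave the same order of the first 4 tissues, with means of 6.71 in liver, 5.69 in spleen, 4.22 in bone marrow and 3.51 in kidney. Over the 72 tissue samples both pairs correlated with Pearson r = 0.980, across samples that share tissue and background. All 4 probes belong to the class named Xhyb on the array, a term the sources used here do not explain.

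STAB1 and STAB2 were also highest in liver. STAB1 was 10.57 ± 0.31 in liver, 9.91 ± 0.60 in spleen and 9.45 ± 0.46 in bone marrow (SD, n = 8 each), and every array was well above background. Its order continued with kidney (8.85), cortex (8.36), cerebellum (7.75) and hypothalamus (7.27). Neighbors differed by the test except spleen and bone marrow (adjusted p = 0.0670) and cerebellum and hypothalamus (adjusted p = 0.0581). STAB2 was well above background in 7 of 8 liver samples and in none of the 48 samples of the other 6 tissues. In liver it was 4.89 ± 0.55, with a lowest value of 3.95 and a highest of 5.55. That put liver at least 2.41-fold above cerebellum, the tissue with the next highest mean, and at least 2.80-fold above bone marrow (adjusted p = 5.29e-11 and 5.68e-14).

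KDR had a mean of 7.27 ± 0.45 in liver, followed by 6.62 ± 0.21 in kidney, 6.17 ± 0.25 in bone marrow and 5.95 ± 0.27 in spleen, and 4.76, 4.52 and 4.32 in hypothalamus, cortex and cerebellum. Liver and kidney differed (adjusted p = 0.000443), as did kidney and bone marrow (adjusted p = 0.0132), while bone marrow and spleen did not pass (adjusted p = 0.274), nor did the brain regions among themselves. ENG led in kidney, at 9.21 ± 0.95, followed by liver at 8.65 ± 0.48 (adjusted p of the difference 0.0494), spleen at 8.16 ± 0.41 and bone marrow at 7.78 ± 0.23, with 6.48 or less in the brain regions. The kidney samples of ENG ran from 8.46 to 10.51 around a median of 8.59, so 3 high samples carried its mean. PECAM1 was likewise highest in kidney (8.64 ± 0.16), ahead of liver at 8.10 (adjusted p = 0.000327).

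TEK stayed near background. 6 of the 56 samples of the 7 tissues were well above it, tissue means ran from 2.76 in hypothalamus to 3.34 in kidney, and both TEK probes correlated with r = 0.0224 over 72 samples, 1 of them never well above background. Its values below are given for completeness and lie near the limit of the array. The tissue means of FLT1 ran from 6.20 in cerebellum to 6.95 in kidney, and among neighbors only the step from liver to bone marrow passed the test (adjusted p = 0.00786).

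VWF gave a different picture with each probe pair. The pair named VWF gave tissue means from 4.30 in cerebellum to 5.18 in bone marrow and no neighbors that differed (adjusted p from 0.201 to 0.981). The second pair was well above background in every array and gave 10.41 ± 0.29 in bone marrow (lowest 10.09, highest 10.94), 8.80 ± 0.75 in spleen and 7.56 to 8.43 in the other 5 tissues. Every bone marrow sample lay above every sample of the other 6 tissues, the step to spleen passed the test (adjusted p = 2.13e-06), and no other step did. The pairs correlated with r = 0.53 over 72 samples. The 2 probes named VWF correlated with r = 0.629 and were well above background on 22 and 76 of 80 arrays. They belong to the class Xhyb, as do the STAB2 probes. The probes of the second VWF pair do not, and they correlated with r = 0.983. Megakaryocyte and platelet genes were also highest in bone marrow, with a mean level of 7.79 over 14 genes against 5.48 in spleen and 4.45 or less in the rest. Their part in the VWF level was not tested.

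**Figure D1:**
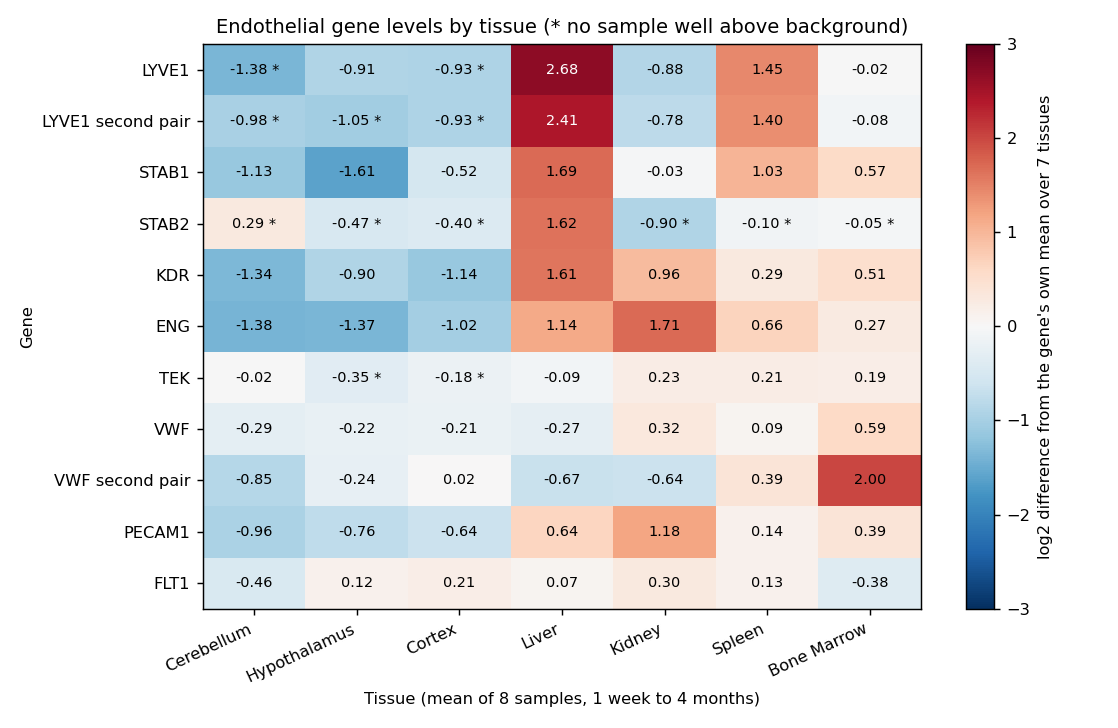
Mean log2 level of each gene in each of 7 tissues (columns, 8 samples of 1 week to 4 months each), as the difference from that gene's own mean over the 7 tissues (color and printed value). Asterisks mark tissues without a sample well above background. LYVE1, STAB1, STAB2 and KDR were highest in liver, ENG and PECAM1 in kidney, and the second VWF pair in bone marrow.

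When each tissue was set against the mean of the other 6, the members were called in the same direction as these orders. For LYVE1 each contrast includes the bone marrow values that chose the genes, so its calls and its part in the counts are descriptions only. Liver had 5 of 7 members called, all higher (LYVE1 by 3.12 ± 0.24 log2 units, STAB1 by 1.97 ± 0.16, STAB2 by 1.89 ± 0.12, KDR by 1.88 ± 0.12 and ENG by 1.33 ± 0.19, each ± SE), where 64.4% of all genes were called in either direction. Spleen had 4 of 7, all higher, against 60.6% of all genes. LYVE1 led there with 1.69 ± 0.24, and the call of KDR in spleen (0.34 ± 0.12) was lost with an offset of 50 in the background correction (adjusted p = 0.357) and in 1 of 8 fits that each left out 1 age and sex. Bone marrow had 3 of the 6 members other than LYVE1 (STAB1, VWF and KDR, all higher) against 65.8%, and LYVE1, for which no test is given there since its marrow values chose the genes, differed by -0.02. Kidney had 6 of 7 against 57.6%, with ENG, KDR, VWF and TEK higher and LYVE1 and STAB2 lower. The calls of VWF and TEK there held in 3 and 2 of the 8 fits that left out 1 age and sex. Cerebellum had 5 of 7 against 62.4%, hypothalamus 6 of 7 against 61.5%, and cortex 5 of 7 against 63.4%. These were lower in every case except STAB2 in cerebellum. No sample was well above background for STAB2 in kidney or any brain region, for LYVE1 in cerebellum or cortex, or for TEK in hypothalamus. The shares called lay near the share of all genes, so the counts say little about the members beyond their sizes.

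Related gene groups were put through the same tissue tests, where 64.4% of all genes were called in liver, 60.6% in spleen and 65.8% in bone marrow. Of 12 measured sinusoidal endothelial genes outside the set, 8 were higher and 1 lower in liver (median difference 1.18, against -0.05 for all genes), and of 9 lymphatic endothelial genes 6 were higher and none lower (median 1.99). Of 23 macrophage genes, 19 were higher and 1 lower in liver, and 18 were higher and 3 lower in spleen, the tissues in which LYVE1 and STAB1 were also highest. The same list had 18 higher and 2 lower in bone marrow. Whether macrophages, endothelium or both gave the LYVE1 and STAB1 signal was not tested. In bulk tissue, fewer cells of a type and less RNA per cell cannot be told apart. Of 11 brain endothelial barrier genes, 7 were higher and 0 lower in hypothalamus, 6 higher and 0 lower in cortex, and 5 higher and 5 lower in cerebellum. Of all genes 61.5%, 63.4% and 62.4% were called there. The shares called of lymphatic genes in liver and of barrier genes in hypothalamus and cortex lay near those of all genes. Those counts thus say little about the groups beyond direction and size.

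LYVE1 in bone marrow was high in the first weeks and near background later. At 1 week the male gave 5.01 and the female 5.37, and at 4 weeks the male gave 4.67 and the female 5.66. At 2 months the male gave 4.03 and the female 3.62, and at 4 months the male gave 2.80 and the female 3.00. All 4 younger samples lay above all 4 older samples, and the age groups also did not overlap for 9.23% of all genes. The sample of 2 years, from the library that stood apart, gave 3.22. The younger mean was 5.18 ± 0.43 and the older 3.36 ± 0.56 (SD, n = 4 each), a measured difference of -1.82 on the log2 scale. All 4 younger samples were well above background, but only the male of 2 months was among the older ones, so most of the older values lie at the limit of the array. Each older value was raised, where it lay lower, to the lowest level of any probe well above background on that array. On that footing the younger mean was at least 2.87-fold higher in the setting reported.

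The second pair fell from 5.02 ± 0.39 to 3.41 ± 0.39, by 1.62 log2 units. None of its older samples was well above background, which bounds the difference at 2.73-fold or more in the same setting. Each of the 4 LYVE1 probes was lower in the older marrow, by 1.48 to 2.06 log2 units. The size of the fall depends on the background correction, with a difference of -0.54 for the named pair under an offset of 50 and -2.51 in the authors' value table. Since this fall chose the subject, no test is given, and 0.674% of all genes were called between the age groups in bone marrow.

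No other member was called in the older marrow. Of the 6 others, 0 were called (limma, Benjamini-Hochberg over all genes), 2 of them at an unadjusted p under 0.05, STAB1 and TEK. STAB1 gave 9.03 and 9.34 at 1 week, 9.06 and 9.22 at 4 weeks, 9.01 and 9.76 at 2 months and 10.06 and 10.12 at 4 months (male, female), a difference of 0.57 ± 0.24 (SE, adjusted p = 0.319) whose sign is opposite to that of LYVE1. TEK differed by -0.61 ± 0.19 (adjusted p = 0.192), by 1 of its probes only (-1.16 against -0.06), and 2 of 8 samples were well above background. KDR differed by 0.09 ± 0.19, ENG by -0.03 ± 0.18 and the second VWF pair by -0.21 ± 0.20. The 95% interval of ENG ran from -0.44 to 0.38.

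Other endothelial genes gave no common direction in marrow either. Of 29, 0 passed the test (limma, 6 at an unadjusted p under 0.05), with a median difference of 0.04 against 0.00 for all genes, of which 0.674% were called. Of 12 sinusoidal genes 1 rose, CLEC4G, a lectin of liver sinusoidal endothelium (1.35 ± 0.19, adjusted p = 0.0209), and of 9 lymphatic genes none was called (2 at an unadjusted p under 0.05). Over 1 week to 4 months, the mean level of the 9 lymphatic genes was 4.84 in bone marrow and 6.39 in liver. It ran from 4.19 in cortex to 5.99 in spleen over the remaining tissues. Of 23 macrophage genes, 2 rose and none fell in the older marrow (0 to 5 rose in 18 other settings), CX3CR1 by 2.20 ± 0.19 (adjusted p = 0.00283) and CD163 by 1.26 ± 0.22 (adjusted p = 0.0442). The mean level of the 23 macrophage genes was 7.60 to 7.88 in the younger and 8.14 to 8.66 in the older marrow samples. Over the same samples, the mean of 10 fat and stromal genes was 5.09 to 5.38 in the younger and 5.74 to 7.07 in the older, and that of the 14 megakaryocyte and platelet genes 7.82 to 8.40 and 7.08 to 7.78. The part of such shifts in cell makeup in the LYVE1 values was not tested.

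**Figure D2:**
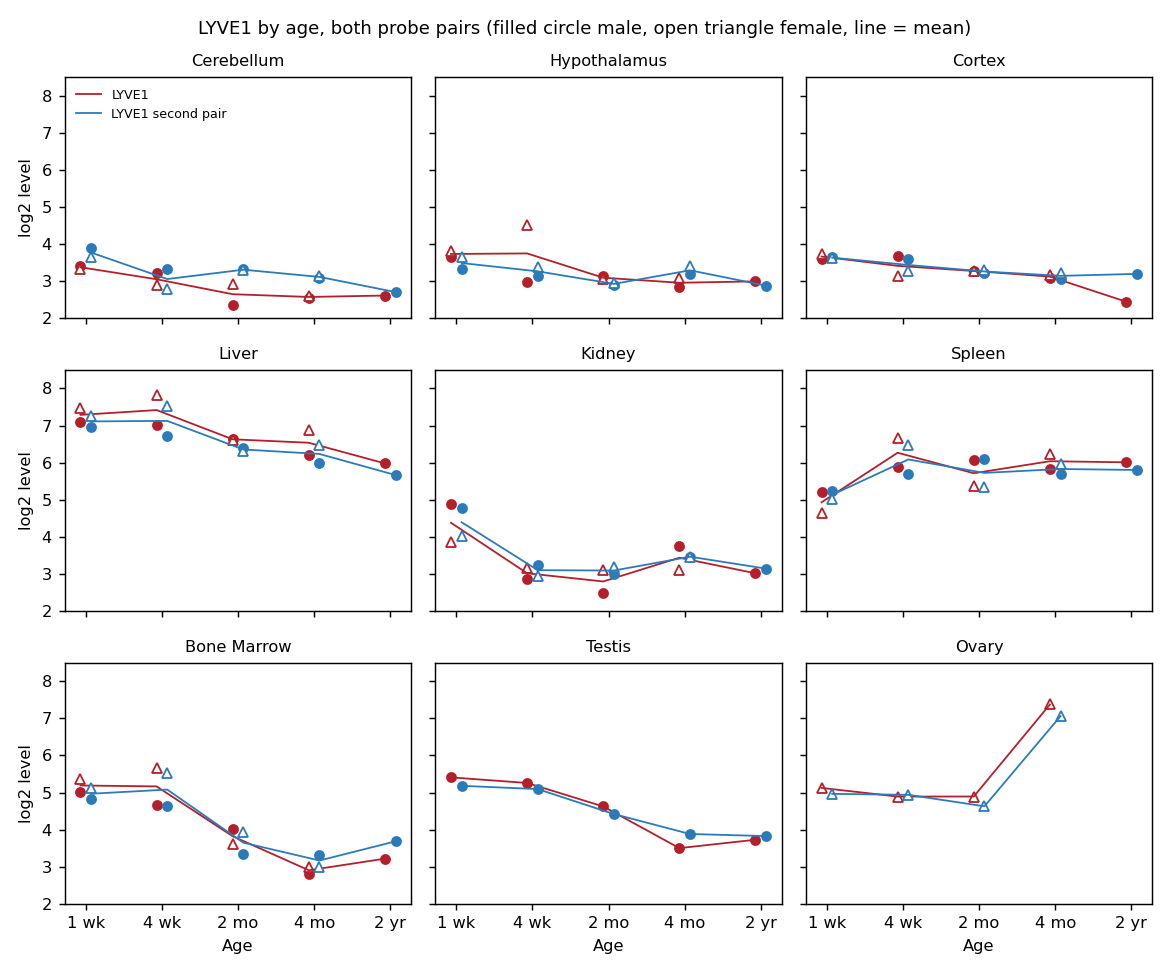
LYVE1 log2 level (vertical axis) by age (horizontal axis) in each of 9 tissues, for the named pair and the second pair. Filled circles are males, open triangles females, and lines join the means. In bone marrow all samples of 1 and 4 weeks lie above those of 2 and 4 months, liver declines less, spleen has its lowest values at 1 week, and the ovary sample of 4 months is the highest of its tissue.

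In liver, LYVE1 was also lower in the older animals, but the difference did not pass the test. The values were 7.10 and 7.48 at 1 week (male, female), 7.01 and 7.83 at 4 weeks, 6.65 and 6.61 at 2 months and 6.20 and 6.87 at 4 months, and the male of 2 years gave 5.98, the lowest of all. The age groups did not overlap. The share of all genes without overlap in liver lay between those in bone marrow (9.23%) and cerebellum (12.2%). The LYVE1 difference was -0.77 ± 0.22 (SE, adjusted p = 0.102) for the named pair and -0.82 ± 0.19 (adjusted p = 0.0655) for the second. The second pair was called in 2 of 10 other settings, with the 2-year sample among the older (adjusted p = 0.0378) and in the joint fit without slide (adjusted p = 0.0426), and in 1 of 8 fits without 1 sample, while the named pair was called in none of these. None of the 7 members was called in liver, 2 at an unadjusted p under 0.05 (LYVE1 and KDR), where 1.80% of all genes were called. KDR was 7.61 ± 0.18 in the younger and 6.93 ± 0.38 in the older liver samples (difference -0.67 ± 0.20, adjusted p = 0.118). It was called (adjusted p = 0.0109) when the age groups of 7 tissues were fitted together, and also when slide was added to that fit (adjusted p = 0.0156).

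In spleen, LYVE1 was lowest at 1 week (5.21 in the male, 4.65 in the female) and highest at 4 weeks (5.88 and 6.66), so the age groups overlapped, and the difference was 0.28 ± 0.40 (adjusted p = 0.739). None of the 7 members was called in spleen, 1 at an unadjusted p under 0.05 (ENG), where 3.11% of all genes were. The difference of ENG was -0.63 ± 0.18 (adjusted p = 0.0978), from 8.48 ± 0.25 to 7.85 ± 0.27. In kidney LYVE1 was well above background only in the 1-week male, at 4.90.

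Averaged over the 6 tissues without bone marrow, LYVE1 was lower in the older animals. The mean over the tissues was 4.52 ± 0.20 in the younger and 4.07 ± 0.08 in the older samples (SD, n = 4 each), a difference of -0.46 ± 0.10 (SE, adjusted p = 0.0211), with lower means in 5 of 6 tissues. The second pair gave -0.32 ± 0.09 (adjusted p = 0.0432), a call that held in 3 of 7 other settings and in 2 of 8 fits without 1 age and sex. LYVE1 was the only one of 7 members called (2, LYVE1 and KDR, had an unadjusted p under 0.05), where 11.1% of all genes were called. In 4 of the 6 tissues, cerebellum, cortex, hypothalamus and kidney, at most 1 of 8 samples was well above background, so much of this mean consists of values at the limit of the array. The call was lost with an offset of 50, with the scanner software's processed signal and with the authors' value table (adjusted p up to 0.129), and in 5 of 8 fits that each left out 1 age and sex.

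Members differed between tissues in how they changed with age. The test for a difference of the age change among the 6 tissues called 3 of 7 members, STAB2 (adjusted p = 0.0457), KDR (adjusted p = 0.0246) and ENG (adjusted p = 0.0111), where 17.0% of all genes were called. With slide as a covariate none of the 3 passed, and no slide held more than 1 tested sample of a tissue, so values within a slide cannot be had. Among these 6 tissues STAB2 was well above background only in liver, and its call was also lost with an offset of 50 and with median scaling. The second VWF pair was called in this test as well (adjusted p = 1.07e-06), and still with slide (adjusted p = 0.00364).

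KDR fell in cerebellum, the only call of a member within a single tissue apart from the second VWF pair in kidney and spleen. The younger samples gave 4.44 and 4.76 at 1 week and 4.74 and 4.56 at 4 weeks (male, female), and the older ones 4.18 and 4.08 at 2 months and 3.86 and 3.94 at 4 months. The groups did not overlap, as for 12.2% of all genes there, and the difference was -0.61 ± 0.12 (SE, adjusted p = 0.0392). No older sample was well above background. The younger mean was 1.52-fold higher as measured in the setting reported, which leaves out the spread between samples. KDR was the 1 of 7 members called, where 2.26% of all genes were, with 5 members at an unadjusted p under 0.05. The call was lost under median scaling, the processed signal and both joint fits (adjusted p up to 0.198), and in 6 of 8 fits without 1 sample. In cortex 0 of 7 members were called (4 at an unadjusted p under 0.05) against 1.72% of all genes, and in hypothalamus 0 of 7 (2 at an unadjusted p under 0.05), where 0% of all genes were called.

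ENG in kidney had its high values at 2 months. The samples gave 8.46 and 8.65 at 1 week (male, female), 8.53 and 8.54 at 4 weeks, 10.51 and 10.28 at 2 months, and 10.27 and 8.47 at 4 months. The female of 4 months was thus at the level of the younger samples, and the mean of the 8 repeat arrays of the 2-year male was 8.72 ± 0.04 (SD of repeats). The age difference was 1.34 ± 0.38 (SE, adjusted p = 0.0571), so 0 of 7 members were called in kidney, 1 at an unadjusted p under 0.05, against 8.43% of all genes. Without the female of 4 months the difference was 1.81 (adjusted p = 0.00108), and both joint fits called it (adjusted p down to 0.000753). KDR in kidney stayed between 6.25 and 6.92.

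**Figure D3:**
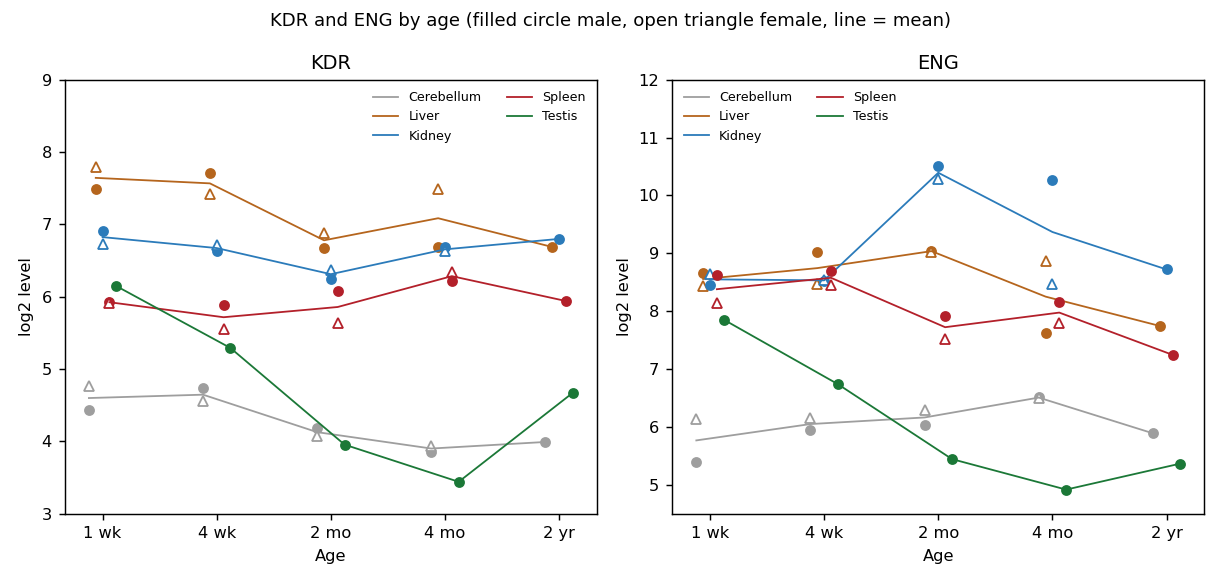
Log2 level (vertical axis) of KDR and ENG by age (horizontal axis) in cerebellum, liver, kidney, spleen and testis. Filled circles are males, open triangles females, and lines join the means. KDR in cerebellum is lower at 2 and 4 months, ENG in kidney is high in both samples of 2 months and 1 of 4 months, and both genes decline in testis up to 4 months.

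VWF changed in opposite directions in kidney and spleen by its second pair. In kidney the values were 7.61 and 6.65 at 1 week (male, female), 6.64 and 6.97 at 4 weeks, 8.95 and 9.00 at 2 months and 8.39 and 7.96 at 4 months. All older samples lay above all younger ones (17.6% of all genes did not overlap there), a difference of 1.61 ± 0.28 (SE, 3.05-fold, adjusted p = 0.0131). In spleen they were 9.56 and 9.35 at 1 week, 9.52 and 9.49 at 4 weeks, 8.30 and 7.75 at 2 months and 8.38 and 8.06 at 4 months. Here all older samples lay below the younger (15.5% of all genes did not overlap there), a difference of -1.36 ± 0.16 (2.56-fold, adjusted p = 0.00776). Both calls held in all 8 fits without 1 sample and in the 10 other settings. The pair named VWF gave 0.21 ± 0.44 in kidney and -0.37 ± 0.25 in spleen, with no call.

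In the older spleen, where 3.11% of all genes were called, genes of several blood cell types were lower, as was VWF by its second pair. Of 14 megakaryocyte and platelet genes, 7 fell and none rose (median difference -2.34, against 0.03 for all genes), among them PF4 by 5.71, CLEC1B by 5.35 and GP1BA by 4.40 log2 units, which encode a platelet chemokine, a platelet lectin receptor and a subunit of the platelet receptor for VWF. SELP, a selectin stored with VWF in platelets and endothelium, fell by 2.76 ± 0.23 (adjusted p = 0.0011). Of 16 erythroid genes 3 fell (HEMGN by 4.72, EPB42 by 4.06 and HBA1 by 2.40), and of 8 neutrophil and myeloid precursor genes 2 fell (S100A8 by 3.77 and MMP8 by 1.35). In 18 other settings 7 to 9 of the platelet list fell, but 0 to 13 of the erythroid and 0 to 6 of the neutrophil list, so these last counts depend on the setting. In kidney 1 of the 14 platelet genes rose and 1 fell (median -0.02), and the mean of the list there was between 3.55 and 3.93 in all 8 samples. Whether the fall of these genes bears on that of VWF in spleen was not tested.

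**Figure D4:**
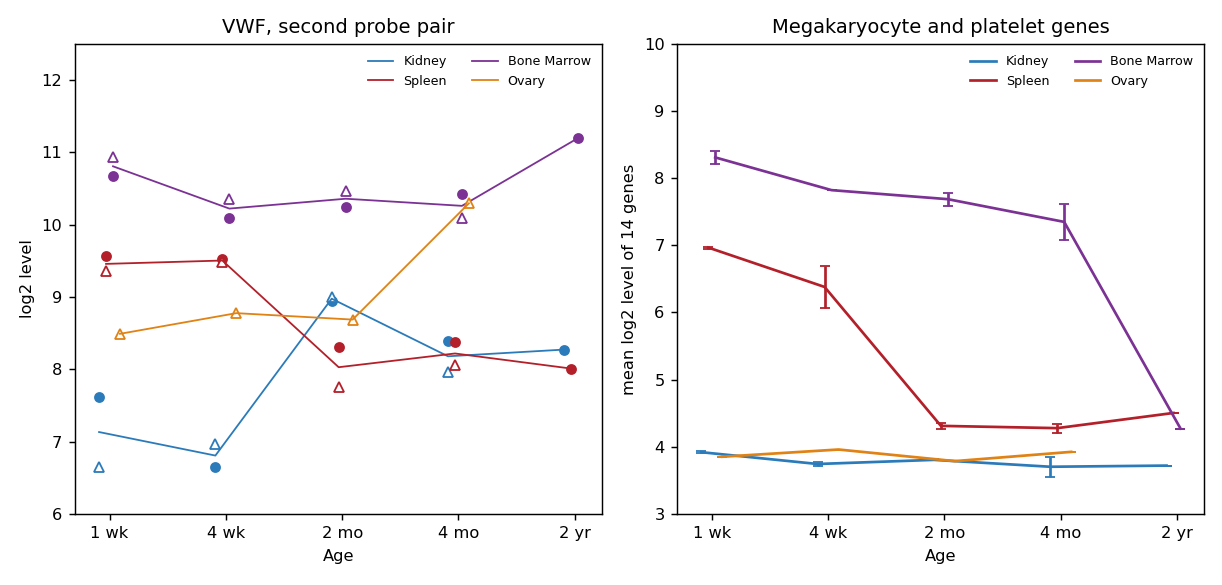
Left, log2 level of the second VWF pair (vertical axis) by age (horizontal axis) in kidney, spleen, bone marrow and ovary, with males as filled circles, females as open triangles and lines through the means. Right, mean log2 level of 14 megakaryocyte and platelet genes in the same samples, with bars from the lowest to the highest sample. VWF rises in kidney and falls in spleen between 4 weeks and 2 months, and the gene list falls in spleen over the same step and is low in kidney throughout.

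Several endothelial genes outside the set changed with age over the 6 tissues. Of 29, 8 fell and 1 rose (median difference -0.19 against 0.02 for all genes, of which 11.1% were called in either direction). The falls included ECSCR by 0.78 ± 0.09, an endothelial cell surface regulator, CDH5 by 0.72 ± 0.09, the cadherin of endothelial junctions, and SELP by 0.70 ± 0.14, and the gene that rose was VCAM1, a leukocyte adhesion molecule, by 0.27 ± 0.07. CDH5 fell in cerebellum by 0.63, in liver by 0.91 and in kidney by 1.36 (adjusted p = 0.0476, 0.0357 and 0.0178), and ECSCR in the same tissues by 0.90, 1.11 and 1.22. In 15 other settings 4 to 9 of the 29 fell and 0 to 3 rose. Genes of other cell types moved in the same comparison. Of 14 megakaryocyte and platelet genes 7 fell, of 16 erythroid genes 3 fell, of 23 macrophage genes 5 rose and of 10 B and T cell genes 4 rose. The part of such shifts in the endothelial values was not tested, and SELP is also a platelet gene.

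Of 25 vascular ligands and receptors, 2 rose and 3 fell over the 6 tissues, where 11.1% of all genes were called in either direction. APLN, the apelin ligand, fell by 0.74 ± 0.11 and JAG1, a Notch ligand, by 0.43 ± 0.08, while CD44, a further hyaluronan receptor, rose by 0.43 ± 0.08 (adjusted p = 0.0157). Of 9 lymphatic genes 1 fell, NR2F2, a regulator of venous and lymphatic identity, by 0.41 ± 0.07. Of 12 sinusoidal genes 1 rose (FCN3, a ficolin, by 0.41) and 1 fell (GPR182, an endothelial receptor, by 0.53). Of 12 mural cell genes 1 rose and 1 fell, and of 11 brain barrier genes 1 fell. In 15 other settings 0 to 2 mural genes rose and 0 to 2 fell, and 0 to 2 barrier genes fell. The lists are small, and the lymphatic and barrier counts lay near the share of all genes, so they say little about these groups.

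**Figure D5:**
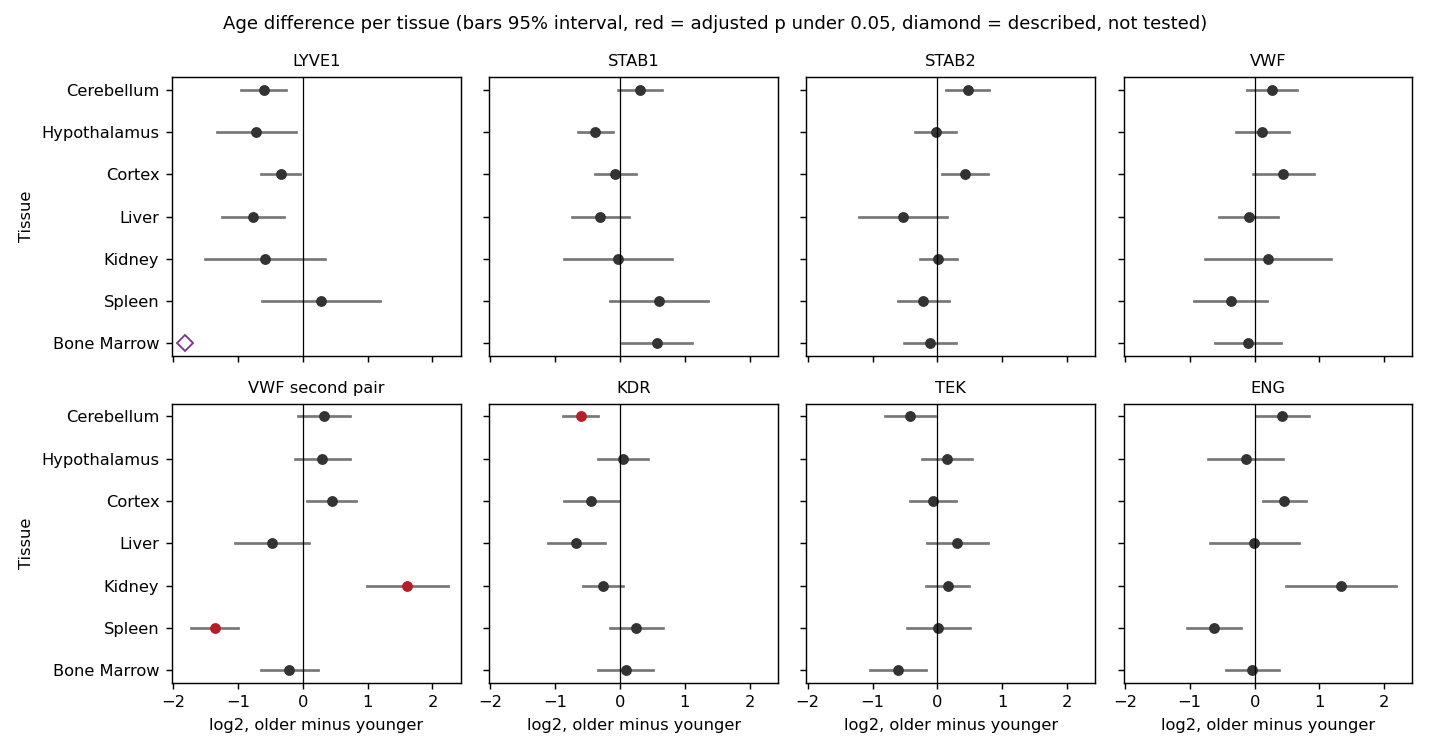
Difference of the mean log2 level between older (2 and 4 months) and younger samples (1 and 4 weeks), on the horizontal axis, for each gene and tissue. Points are estimates from limma with 4 samples against 4, bars are 95% intervals, red points have an adjusted p under 0.05, and the diamond for LYVE1 in bone marrow is a description without a test. The calls are KDR in cerebellum and the second VWF pair in kidney and spleen.

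In testis, where 1 male was sampled per age and no test was made, most members declined. KDR went from 6.15 at 1 week and 5.29 at 4 weeks to 3.96 at 2 months and 3.44 at 4 months, and ENG from 7.86 and 6.74 to 5.45 and 4.92. LYVE1 went from 5.41 and 5.26 to 4.62 and 3.50, and STAB1 from 10.02 and 8.66 to 7.82 and 7.66. FLT1 ran the other way, with 6.48 and 6.49 in the first weeks and 9.21, 8.75 and 8.96 at 2 months, 4 months and 2 years. The mean of the 29 other endothelial genes fell from 6.52 at 1 week to 5.17 at 4 months in the same samples. In ovary, LYVE1 was 5.12, 4.89 and 4.89 up to 2 months and 7.38 at 4 months, and the second pair went from 4.63 to 7.06 over that last step. The second VWF pair rose with it, from 8.69 to 10.30.

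Male and female were set against each other in 28 pairs matched for tissue and age. None of the 7 members was called, where 0.266% of all genes were, and 1, VWF, had an unadjusted p under 0.05. The pair named VWF was higher in the male in 21 of 28 pairs, by 0.27 log2 units (adjusted p = 0.289). LYVE1 was higher in the male in 11 of 28 pairs and differed by -0.14 (adjusted p = 0.751).

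Over the 72 tissue samples, the genes with a symbol whose profile was most like that of LYVE1 were SLC35G1 (Pearson r = 0.873), ITGA9, C4A, HAND2, CALU, SOCS1, GUSB, C8orf80, CLEC4G and EDEM2 (r = 0.806). Only ITGA9, an integrin of lymphatic endothelium, and CLEC4G, the sinusoidal lectin named above, belong to the gene lists used here. The others, with SLC35G1 at the top, are on none of these lists. CLEC4G rose in the older marrow, where LYVE1 fell. These correlations follow tissue levels that all samples of a tissue share, and they are descriptions over 12860 genes. Within the set, LYVE1 correlated with STAB1 at r = 0.764, with KDR at 0.629, with STAB2 at 0.479 and with ENG at 0.434. KDR and ENG correlated at r = 0.817.

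Over the 9 bone marrow samples a different list came first, led by HADHB (r = 0.985, and 0.985 without the 2-year library), BCAS2, ALOXE3, MRPS36, C7orf55, PKIA, LRRC14, BTF3, TOMM6 and BAG6 (r = 0.914). This list is the top of 12860 genes over 9 samples and rests on the LYVE1 marrow values that chose the subject. High r can come from any age step there, so the values are descriptions only. HADHB, a subunit of the mitochondrial trifunctional protein, went from 10.69 and 10.61 at 1 and 4 weeks to 10.38 and 10.16 at 2 and 4 months. For the others, the most alike genes were SERPING1, B4GALT1 and SLC40A1 for STAB1 (r from 0.880 to 0.888), TFR2, HTR1E and AFM for STAB2 (0.811 to 0.821), RIPK3, TMED9 and HADH for KDR (0.909 to 0.922), SLC23A1, TMEM88 and TMEM223 for ENG (0.878 to 0.889), VSIG2, HOXA4 and GPR116 for VWF (0.598 to 0.604), and TRPV6, ZFAND6 and FRMD8 for TEK (0.498 to 0.539).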

How the data were processed

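Total RNA of 72 minipig tissue samples was measured on 80 custom one-color Agilent arrays of 62976 spots. The authors deposited scanner files with intensity values per spot, produced per the submitters' processing notes with Agilent Feature Extraction 11.5.1.1, and a table of normalized log2 values of 49280 probes, each column with a median of 4.57. For their arrays the study's methods name RMA with background correction and quantile normalization. The members and gene lists were chosen with earlier results of these data known.

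From the median intensity of each spot the background was corrected by normexp (saddle point estimate, offset 0), and values were quantile normalized and put on the log2 scale (R 4.3.3, limma 3.58.1). Spots marked as outliers by the scanner software, 10 to 590 gene spots per array, were left out. Spots of a probe were averaged, then probes of a gene, a gene name being the probe's name without its running number. Of 23736 names 23722 had values in the samples. The 8 repeat arrays of the 2-year kidney were averaged to 1 sample. Members were matched by name, and PECAM1, FLT1 and the second pairs through RefSeq identifiers. Levels depend on the probe, so no level was set against that of another gene.

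Age was tested with limma within each tissue (4 older against 4 younger samples), over the mean of 6 tissues, and as its difference between the 6 tissues. Each tissue was tested against the other 6, and males against females with tissue and age as pairs. P-values were adjusted by Benjamini-Hochberg over all genes at a threshold of 0.05. Settings tried were median scaling, the processed signal scaled to its 75th percentile, the authors' table, the median of probes, an offset of 50, a filter on low values, a block of sex or of age and sex, the 2-year sample among the older, joint fits over 7 tissues without and with slide, and leaving out each sample. Genes named were the members, the members of fixed lists that were called, and the 10 genes most like LYVE1 and 3 most like each other member by Pearson correlation.

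On simulated data a log2 change of 2 was recovered for 83% of changed genes in the bone marrow age test and for 41% at a change of 1. Deviations of samples of the same sex within a tissue correlated with r from -0.21 to 0.29, so sex was not taken to pair samples. Samples of the same age and sex correlated across tissues (mean r of their deviations 0.158, against -0.022 otherwise). Python 3.11.15, numpy 2.4.6, pandas 2.3.3 and matplotlib 3.10.9 were used for summaries and plots.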

Additional observations from a re-analysis of the deposited data

Results flagged for a closer look

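In 14 of 147 groups of 4 or 8 samples, 1 sample lay far from the others relative to the group's range, where chance gives about 1 in 20 for separate groups. These groups share samples, since the younger, the older and all 8 samples were each counted. The count can thus not be set against that rate. The male of 2 months was the lowest of the older cerebellum samples in STAB1 (7.52, nearest 7.99) and in TEK (2.49), the highest of 8 in VWF in cerebellum (4.92, nearest 4.40) and in kidney (6.53, nearest 5.07), and the highest in TEK in liver (3.80, over the older and over all 8 samples) and in spleen (3.91). In spleen the female of 4 weeks was the lowest of the younger samples in STAB2 (2.81) and in KDR (5.55, nearest 5.88), and the female of 4 months was the lowest of the older ones in STAB2 (2.89). The female of 1 week was the highest of 8 cortex samples in TEK (3.44). ENG was lowest in the liver of the male of 4 months (7.63, nearest 8.87 among the older and 8.44 among all) and in the kidney of the female of 4 months (8.47, nearest 10.27 among the older). The STAB2 values in spleen and the TEK values in cerebellum and cortex were not well above background.

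The age change differed between the 6 tissues for STAB2 (adjusted p = 0.0457), KDR (adjusted p = 0.0246) and ENG (adjusted p = 0.0111) by limma's test of the difference, and none passed with slide as a covariate.

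The renal pelvis of the 2-year male, 1 array outside the comparisons, lay above all 8 repeat arrays of its kidney in LYVE1 (3.59, highest repeat 3.49) and in STAB1 (8.92, highest repeat 7.97). The LYVE1 values are at the limit of the array.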

How the results depend on the processing

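The LYVE1 difference in bone marrow chose the subject, so its sign, below 0 under every setting, is a description only. It was -1.82 in the setting reported, -0.54 with an offset of 50 and -2.51 in the authors' table, and -2.04 to -1.63 without 1 sample. In cerebellum 1 member was called, and 0 with the processed signal, with median scaling and in the joint fits without and with slide (0 to 2 without 1 sample). In liver 0 members became 1 (KDR) in both joint fits (0 to 1 without 1 sample), in kidney 0 became 1 (ENG) in both (0 to 1), and in bone marrow 0 became 1 (TEK) in the joint fit without slide (0 to 1, STAB1 called without the 2-month male). Over the mean of 6 tissues 1 member became 0 with the processed signal, the offset of 50 and the authors' table (0 to 3 without 1 age and sex, the 3 without the 4-month female). Members whose age change differed between tissues went from 3 to 0 with slide as a covariate. Calls against the other 6 tissues stayed within 1.5 times under all settings, and no result reversed. The cause of these shifts was not tested.

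With sex as a replicate block the age comparisons called 1 member in cerebellum, 0 in each other tissue and 1 over the mean of 6, as without the block. With age and sex as a replicate block, cerebellum against the other 6 tissues called 6 and liver 6, where the fit without it called 5 each, and kidney 5 for 6. Detection sets the main limit: levels under about 2.95 to 4.20, the 95th percentile of negative controls per array, could not be told from background, which concerns TEK, STAB2 outside liver, and LYVE1 in brain, kidney and older bone marrow.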

Other observations

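In the renal pelvis array of the 2-year male, the other genes were placed on both sides of its 8 kidney repeats. KDR was 5.52 against 6.80 ± 0.05 (SD of repeats), ENG 8.02 against 8.72 ± 0.04 and VWF 5.35 against 5.96 ± 0.11, each below all repeats. The second VWF pair was 9.77 against 8.27 ± 0.05, FLT1 7.27 against 6.59 ± 0.08 and PECAM1 8.49 against 8.28 ± 0.03, each above all repeats. With 1 array there is no test.

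The 2-year bone marrow library, low in blood cell genes, gave STAB1 at 10.55, KDR at 7.00, PECAM1 at 9.36 and the second VWF pair at 11.20, each above all 8 younger marrow samples, and ENG at 7.51 within them.

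In ovary, STAB1, KDR and ENG were also highest at 4 months, with STAB1 at 10.17 (9.55 to 9.75 before), KDR at 6.40 (5.79 to 6.06) and ENG at 7.61 (6.78 to 7.22), and the mean of the 29 other endothelial genes was 6.66 (6.07 to 6.27). STAB2 and TEK were not well above background in any ovary sample. Each age was 1 sample, with no test.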
